A study of Mus musculus with 27 samples.

Results

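The age comparison set the ventricular apexes of 6 unoperated C57BL/6J mice aged 16 weeks against those of 6 unoperated mice aged 6 weeks, so it holds 12 of the 27 libraries of the series. The libraries were taken by the age in their labels, and all 57683 features of the count table entered except its line of totals. C57BL/6J is an inbred laboratory strain. The labels give every one of the 12 mice as male and list no transgene, operation or treatment for either age. The study sequenced polyadenylated RNA as single-end reads that do not keep the strand. Its other libraries were whole hearts at embryonic day E13.5 and apexes of mice aged 12 weeks after a sham operation or after pressure overload. Each library was made from 1 heart, so the spread between libraries is a spread between animals. The labels give no day of harvest or sequencing for either age, so age and anything else that the libraries of an age share cannot be told apart. The apex holds ventricular cardiomyocytes together with fibroblasts, endothelial cells, pericytes, macrophages and blood.

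A mouse of 6 weeks is an adolescent whose heart still grows by enlargement of its cardiomyocytes, few of which divide. Collagens and the laminin, nidogen and type IV collagen sheets of the basement membrane are laid down while the ventricle grows and are renewed slowly afterwards. Cardiomyocytes also carry ion channels that set excitability, a calcium release system in the sarcoplasmic reticulum, and mitochondria packed between the myofibrils.

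Total counts ran from 2164604 to 2642307 at 16 weeks and from 2092270 to 2682955 at 6 weeks. Cardiomyocyte markers, summed over 12 genes, stood at 132686 to 155055 CPM (counts scaled to the size of the library) at 16 weeks and 137986 to 153492 at 6 weeks. None of the 13 lymphocyte or 6 lung markers had enough counts to be tested. Counts summed over the Y-linked genes Ddx3y, Kdm5d, Eif2s3y and Uty were 0 in replicates 1 and 6 at 16 weeks, and 0 and 1 in replicates 1 and 6 at 6 weeks, although all are labelled male. The other 8 libraries had 101 to 219. Each age thus had 2 libraries with at most 1 Y-linked count and 4 with 101 or more. Myl7 and Myl4, myosin light chains of the atrium, had 59 and 50 counts in replicate 2 at 6 weeks, whereas the other 11 libraries had at most 3 and 6. This library also had the lowest Nppa of all 12, at 199 counts, where the others had 533 to 2954. Counts of the mitochondrial genome made up 0.658%, 0.5001% and 0.488% of replicates 1, 4 and 6 at 16 weeks, against 1.33% to 2.28% in the 6 libraries at 6 weeks.

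Few genes separated the ages. Of 10394 features with enough counts to test, 137 (1.32%) were higher and 124 (1.19%) lower at 16 weeks by edgeR's quasi-likelihood test at a Benjamini-Hochberg adjusted p under 0.05. Most changes were small: 55 of the higher and 64 of the lower features differed by at least 1.5-fold. The median change of the 261 called features (2.51% of those tested) was 0.54 in size on the log2 scale, and the median over all features was -0.01. The 2 ages did not overlap for 212 features (2.04% of those tested; 124, or 1.19%, with more at 16 weeks and 88, or 0.847%, with less), of which 135 were also called. A call was kept in each of the 12 fits that left out 1 library for 41 higher and 42 lower features. The counts of higher and lower features were 51 and 56 without replicate 3 at 16 weeks, and 63 and 57 without replicate 4. They were 72 and 72 without replicate 1 at 16 weeks, 80 and 74 without replicate 6 at 16 weeks, 81 and 61 without replicate 4 at 6 weeks, 75 and 73 without replicate 5 at 6 weeks, and 207 and 157 without replicate 6 at 6 weeks.

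The 30 leading coding genes, 15 in each direction with the smallest p, a mean of at least 5 CPM and ages that did not overlap, kept their calls in all 12 of those fits. All 30 also kept them in a fit that removed the trend of each library with transcript GC share, described with the GC values at the end. In the 8 libraries with 101 or more Y-linked counts, 74 features were higher (0.707%) and 64 lower (0.612%) of 10466 tested, and 25 of the 30 were called. The 5 that lost their call there were Lonp2, Slc39a1, Wfdc1, Fundc2 and Iws1. The 30 were picked by p and lack of overlap in these same 12 libraries, so the calls they kept are not independent support. Values below are the lowest, the median and the highest of the 6 libraries of an age, in CPM scaled by the trimmed mean of M-values (TMM), and fold changes are log2 of 16 weeks over 6 weeks with their standard error.

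Ndrg4 had the smallest p of all features. It encodes an intracellular protein of the N-myc downstream-regulated family that is made in heart and brain, and in zebrafish its loss slows the heart beat and reduces cardiomyocyte number. Ndrg4 had 304, 329 and 368 CPM at 16 weeks against 631, 702 and 764 CPM at 6 weeks. The highest library at 16 weeks lay well below the lowest at 6 weeks, and the log2 fold change was -1.08 ± 0.07, adjusted p = 1.67e-09. It stayed within -1.12 to -1.05 when any 1 library was left out. The 3 other genes of the family were not called: Ndrg2 changed by 0.05 ± 0.06, adjusted p = 0.734, Ndrg1 by -0.05 ± 0.11, adjusted p = 0.883 and Ndrg3 by -0.13 ± 0.15, adjusted p = 0.712. Per kilobase of exon that no other feature shares, Ndrg2 was the most abundant member, at a median of 984 CPM per kb at 16 weeks and 921 at 6 weeks, and Ndrg4 came next at 67.7 CPM per kb at 16 weeks and 144 at 6 weeks. With all 27 libraries scaled together, Ndrg4 stood at 185 to 241 CPM in the embryonic hearts, 648 to 809.9 at 6 weeks, 146 to 173 in the 4 sham-operated hearts aged 12 weeks and 318 to 395 at 16 weeks. The level in sham-operated hearts thus lay below both unoperated ages rather than between them. Sham-operated libraries held 7958592 to 11561952 counts and embryonic ones 7543375 to 12646039, against 2092270 to 2682955 in the unoperated ones. In every such comparison here, sequencing depth and anything else shared by a group of libraries cannot be told apart from age or operation.

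**Figure D1:**
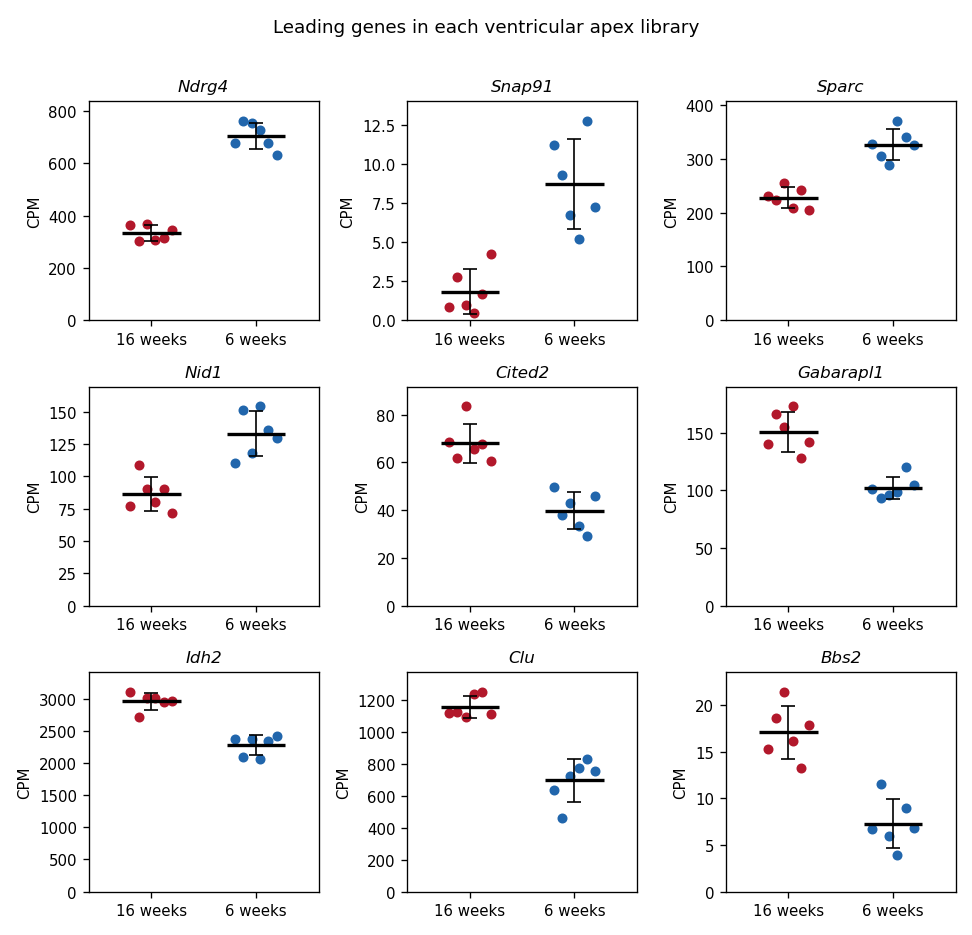
CPM of 9 of the leading genes in each library (points; 6 per age), with the mean (line) and SD (bars), 16 weeks on the left and 6 weeks on the right. In each panel, including Ndrg4 and Bbs2, the points of the 2 ages do not overlap, which was a condition for being a leading gene.

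Pacemaker channel genes were among the decreases. Hcn4 encodes the main pacemaker channel of the sinus node, which working ventricular muscle carries at a low level. Hcn4 had 13.6, 17.7 and 19.1 CPM at 16 weeks against 23.2, 29.2 and 62.5 CPM at 6 weeks. The ages did not overlap, and the log2 fold change was -1.10 ± 0.23, adjusted p = 0.0181. Cacna1g encodes the T-type calcium channel Cav3.1, also a channel of nodal cells and of young ventricle. It had 61.8, 92.4 and 106 CPM at 16 weeks against 111, 131 and 172 CPM at 6 weeks, again with no overlap, and changed by -0.62 ± 0.12, adjusted p = 0.0129 with the call kept in all 12 leave-one-out fits. Both were lower, of 19 tested on a list of 28 conduction and pacemaker genes whose median change was -0.14, and no other was called, against 1.19% lower over all features. Popdc2, a cyclic AMP-binding membrane protein and the most abundant member without a call, changed by 0.20 ± 0.07, adjusted p = 0.127. Their relatives Hcn2 and Cacna1h, named here after their values were seen, were not called. Cacna1h had 3.10, 6.03 and 6.79 CPM at 16 weeks against 4.83, 16.9 and 57.3 CPM at 6 weeks, a change of -2.01 ± 0.65, adjusted p = 0.15, and its 3 highest libraries at 6 weeks were replicates 2, 5 and 1. Hcn2, at a median of 17.9 CPM per kb at 16 weeks and 21.1 at 6 weeks, changed by -0.17 ± 0.13, adjusted p = 0.541. Replicate 2 at 6 weeks, the library with atrial light chain counts, was the highest for Hcn4, Cacna1h and Cacna1g. Hcn4 lost its call in 3 of the 12 fits, and its change ranged from -1.20 to -0.87. The part of atrial or nodal tissue in these changes was not tested. Sham-operated hearts had 5.50 to 11.7 CPM of Hcn4 and 25.5 to 36.0 of Cacna1g, below every unoperated library of both ages (14.3 to 20.7 at 16 weeks and 24.6 to 65.7 at 6 weeks for Hcn4, and 64.8 to 115 at 16 weeks and 117 to 180.3 at 6 weeks for Cacna1g).

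Neuronal vesicle genes included some of the steepest falls, at low levels, and also some rises. Snap91, the clathrin assembly protein AP180 of nerve endings, had 0.425, 1.299 and 4.26 CPM at 16 weeks against 5.16, 8.27 and 12.8 CPM at 6 weeks. Its change was -2.23 ± 0.36, adjusted p = 0.00187, and no library at 16 weeks reached the lowest at 6 weeks. Sv2a, a synaptic vesicle glycoprotein, had 10.5, 12.3 and 14.4 CPM at 16 weeks against 15.9, 22.0 and 36.7 CPM at 6 weeks and changed by -0.94 ± 0.19, adjusted p = 0.00952. Dbh, which makes noradrenaline in sympathetic nerve endings, had 4.26, 6.97 and 8.92 CPM at 16 weeks against 8.17, 13.3 and 25.3 CPM at 6 weeks and changed by -1.11 ± 0.24, adjusted p = 0.0162, with some overlap between the ages. Of 20 tested among 29 synaptic vesicle and endocytosis genes, 3 were lower (Snap91, Sv2a and Picalm) and 1 was higher, where 1.19% of all features were lower and 1.32% higher. The median change of the list was 0.01. Picalm lost its call in 8 of the 12 leave-one-out fits and in the GC-corrected fit (-0.37 ± 0.13, adjusted p = 0.129). The higher gene was Sncg, gamma-synuclein, with 14.7, 18.6 and 27.6 CPM at 16 weeks against 6.70, 10.6 and 12.7 CPM at 6 weeks and a change of 0.93 ± 0.19, adjusted p = 0.00864. Dbh was the 1 called gene among the 6 tested of 15 nerve and Schwann cell markers, whose median change was 0.20. Th, the enzyme that opens noradrenaline synthesis, had no count in any of the 12 libraries, and Stmn2, another neuronal marker, had 182 counts at 16 weeks and 148 at 6 weeks.

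Genes on the lists of extracellular matrix genes were lower at 16 weeks wherever they were called. The 5 lists of matrix genes hold 102 members, of which 84 had enough counts to test. None was higher and 8 were lower, against 1.19% lower over all features, and 67 of the 84 had a negative change. The median change was -0.18, against -0.01 over all features. The called members were the basement membrane genes Nid1, Lama2, Lamc1 and Col4a5, the matricellular genes Sparc and Mfap5, the fibrillar collagen gene Col1a2 and the crosslinking enzyme gene Loxl2. Fewer cells that make matrix and less of this RNA per cell cannot be told apart in whole tissue. The count of matrix genes called lower was 5 without replicate 2 at 16 weeks, without replicate 3 at 16 weeks or without replicate 4 at 6 weeks, and 20 without replicate 3 at 6 weeks.

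**Figure D2:**
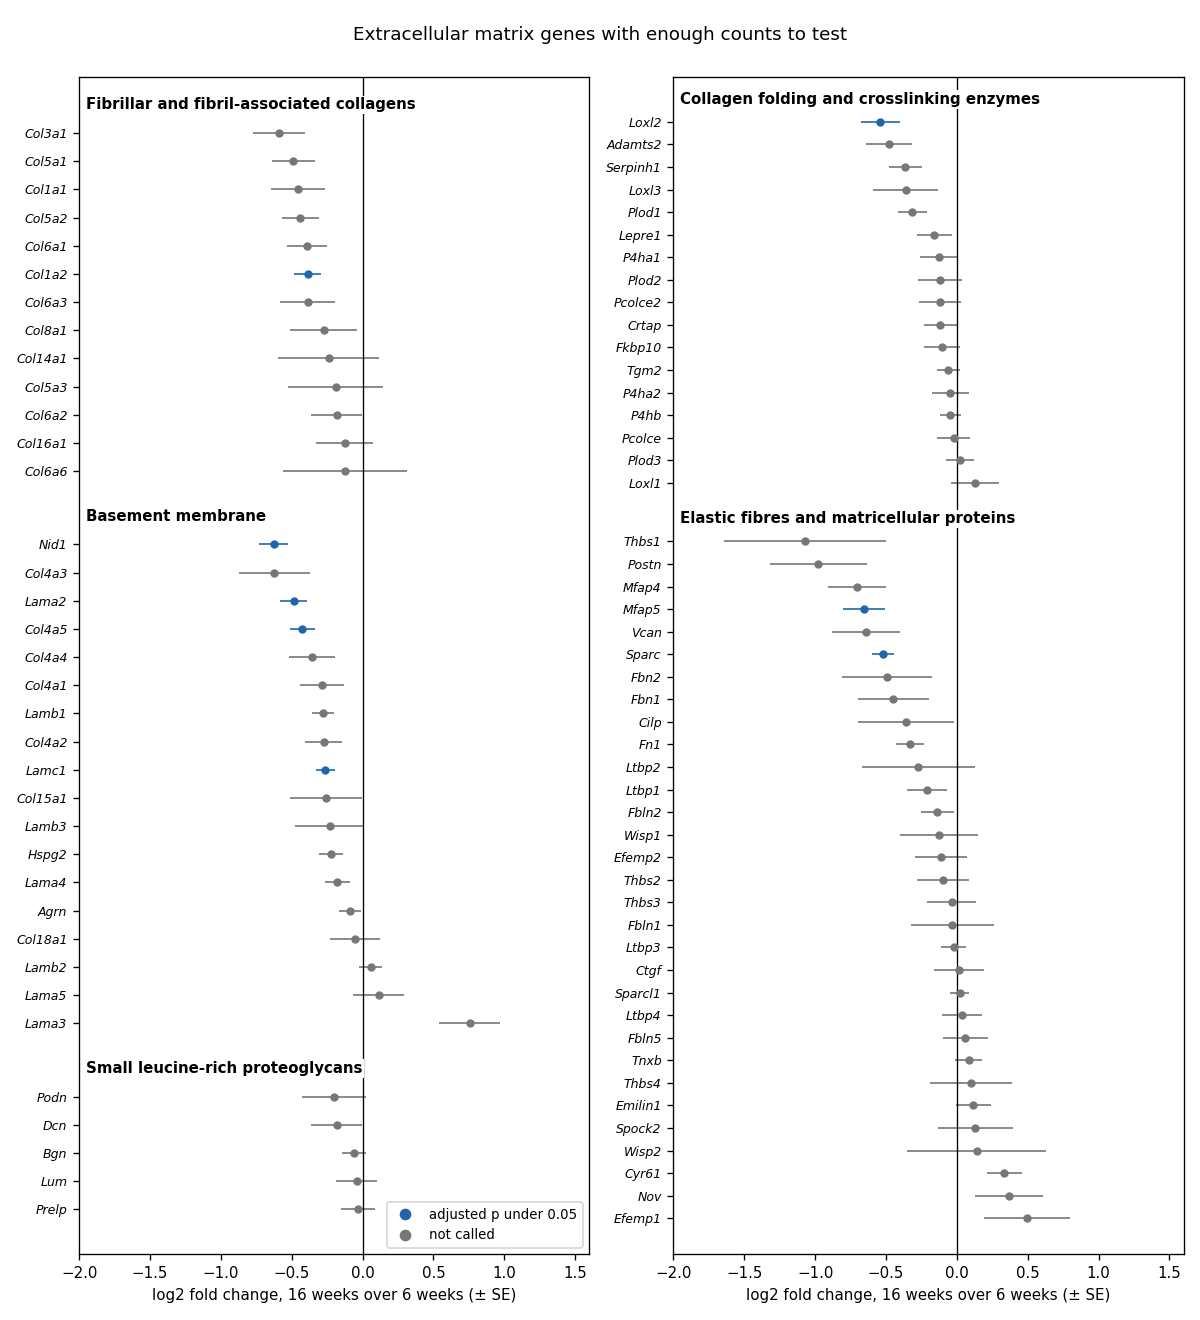
Log2 fold change of 16 weeks over 6 weeks (points, with SE as bars) for the 84 matrix genes tested, grouped by list. The 8 called genes are in blue, all to the left of 0, and 67 of the 84 points are left of 0.

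Basement membrane genes led this group, with 4 of 18 tested called lower and none higher, against 1.19% lower over all features. Nid1 encodes nidogen 1, which links the laminin and type IV collagen networks. Nid1 had 71.6, 84.9 and 109 CPM at 16 weeks against 110.0, 133 and 154 CPM at 6 weeks. The ages did not overlap, and the change was -0.63 ± 0.10, adjusted p = 0.00212. Lama2, the laminin alpha chain of the muscle basement membrane, had 218, 241 and 283 CPM at 16 weeks against 256, 339 and 424 CPM at 6 weeks, a change of -0.49 ± 0.09, adjusted p = 0.00795 and some overlap between the ages. Col4a5, a type IV collagen chain encoded on the X chromosome, had 62.3, 72.9 and 82.9 CPM at 16 weeks against 87.3, 98.9 and 106 CPM at 6 weeks, without overlap, and changed by -0.42 ± 0.09, adjusted p = 0.0121. Lamc1, the gamma chain shared by most laminins, fell least, with 548, 619 and 649 CPM at 16 weeks against 687, 716 and 819 CPM at 6 weeks and a change of -0.26 ± 0.07, adjusted p = 0.0363. Its call was lost in 6 of the 12 leave-one-out fits and in the GC-corrected fit (-0.23 ± 0.06, adjusted p = 0.0612). The most abundant member that was not called was Hspg2, the heparan sulphate proteoglycan perlecan, at -0.22 ± 0.09, adjusted p = 0.173.

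Sparc encodes a collagen-binding glycoprotein that fibroblasts and endothelial cells secrete, and that acts in the assembly of collagen fibrils. Sparc had 204, 228 and 254 CPM at 16 weeks against 288, 327 and 371 CPM at 6 weeks, with no overlap, and changed by -0.52 ± 0.08, adjusted p = 0.00141. Mfap5, a microfibril component, had 17.6, 20.7 and 24.3 CPM at 16 weeks against 24.4, 31.8 and 43.8 CPM at 6 weeks and changed by -0.66 ± 0.15, adjusted p = 0.0171, with the call lost in 2 of the 12 leave-one-out fits. Loxl2, a lysyl oxidase that crosslinks collagen, changed by -0.54 ± 0.14, adjusted p = 0.0388 and lost its call in 7 of the 12 fits. All 13 fibrillar and fibril-associated collagen genes tested had a negative change, with a median of -0.39, and Col1a2 was the 1 called (208 to 306 CPM at 16 weeks and 284 to 415 CPM at 6 weeks; -0.39 ± 0.10, adjusted p = 0.0333). Col1a2 lost its call in 6 of the 12 leave-one-out fits and in the GC-corrected fit (-0.34 ± 0.11, adjusted p = 0.0959). Col3a1 had 267, 328 and 349.8 CPM at 16 weeks against 231, 530.1 and 575 CPM at 6 weeks. At 6 weeks 5 libraries had more Col3a1 than every library at 16 weeks, but replicate 3 at 6 weeks had the least of all 12, and the change of -0.59 ± 0.19, adjusted p = 0.131 was not called. Col1a1 changed by -0.46 ± 0.19, adjusted p = 0.248, Col6a1 by -0.39 ± 0.14, adjusted p = 0.165, and Serpinh1, the collagen chaperone, by -0.36 ± 0.12, adjusted p = 0.111. Adamts9, a protease that cleaves the proteoglycan versican, is on no list and was among the leading genes. It had 16.6, 27.8 and 31.8 CPM at 16 weeks against 38.3, 47.1 and 52.3 CPM at 6 weeks and a change of -0.80 ± 0.13, adjusted p = 0.00288. Ntn1, the secreted laminin-related protein netrin 1, is also on no list and was called higher. Its libraries had 345 to 475 CPM at 16 weeks and 171 to 315 CPM at 6 weeks. With all 27 libraries scaled together, Sparc stood at 451 to 532 CPM at E13.5, 309.7 to 393 at 6 weeks, 297 to 329 in sham-operated hearts aged 12 weeks and 220.4 to 263 at 16 weeks, so here the median of the sham-operated hearts lay between those of the unoperated ages. Nid1 in sham-operated hearts, at 105 to 152 CPM, reached into the 16-week range of 77.4 to 114 and overlapped the 6-week range of 116 to 163.

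Markers of fibroblasts, summed over 15 genes, ranged from 3246 to 4280 CPM at 16 weeks and from 3829 to 6166 CPM at 6 weeks, so the ages overlapped. Of the 15, 11 had a negative change, and the median was -0.18. The markers called lower were Dpt, Col1a2 and Mfap5, against 1.19% lower over all features. Col1a2 and Mfap5 are also on the matrix lists. Dpt was without a call in 10 of the 12 leave-one-out fits. None of the 15 was called in the 8 libraries with 101 or more Y-linked counts. Pdgfra and Tcf21, which define cardiac fibroblasts and are not matrix genes, had 1073 and 264 counts over the 6 libraries at 16 weeks and 1219 and 238 at 6 weeks, with changes of -0.10 and 0.22 that were not called, the second being the most positive of the list. The part of fibroblast content in the matrix changes was not tested. Endothelial markers summed to 2599 to 2708 CPM at 16 weeks and 2504 to 2884 at 6 weeks, and none of 15 tested was called. None of 13 macrophage markers was called either, although 12 had a negative change and the median was -0.29.

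Nid1, Sparc, Lama2 and Col4a5 were the matrix genes called in every leave-one-out fit, and their promoters are shown because they moved together. Each window runs from 250 bases before to 50 bases after the start of the gene, in RefSeq on build GRCm38.p6, at chr11:55420031-55420330 on the minus strand for Sparc, chr13:13437352-13437651 on the plus strand for Nid1, chr10:27616893-27617192 on the minus strand for Lama2 and chrX:141475169-141475468 on the plus strand for Col4a5. Capitals mark matches on either strand to GGGCGG (the GC box), CCAAT (a site of the factor NF-Y), TATAAA (the TATA box) or TGANTCA (the AP-1 site), which did not overlap each other in these windows.
Sparc: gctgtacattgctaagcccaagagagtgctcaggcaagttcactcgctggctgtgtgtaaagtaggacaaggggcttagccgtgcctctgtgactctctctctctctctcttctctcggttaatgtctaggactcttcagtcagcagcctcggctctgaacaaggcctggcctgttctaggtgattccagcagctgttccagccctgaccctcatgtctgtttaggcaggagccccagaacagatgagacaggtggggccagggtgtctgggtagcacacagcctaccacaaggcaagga
Nid1: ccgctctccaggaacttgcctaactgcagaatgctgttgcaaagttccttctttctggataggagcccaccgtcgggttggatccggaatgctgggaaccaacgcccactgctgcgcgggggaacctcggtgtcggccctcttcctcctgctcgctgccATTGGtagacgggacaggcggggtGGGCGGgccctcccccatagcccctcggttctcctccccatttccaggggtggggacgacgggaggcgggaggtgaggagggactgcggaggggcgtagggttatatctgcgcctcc
Lama2: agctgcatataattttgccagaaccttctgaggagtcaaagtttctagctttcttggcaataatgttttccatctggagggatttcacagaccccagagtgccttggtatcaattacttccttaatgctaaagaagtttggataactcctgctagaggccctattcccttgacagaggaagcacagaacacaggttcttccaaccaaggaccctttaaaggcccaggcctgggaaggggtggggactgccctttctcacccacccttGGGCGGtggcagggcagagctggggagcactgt
Col4a5: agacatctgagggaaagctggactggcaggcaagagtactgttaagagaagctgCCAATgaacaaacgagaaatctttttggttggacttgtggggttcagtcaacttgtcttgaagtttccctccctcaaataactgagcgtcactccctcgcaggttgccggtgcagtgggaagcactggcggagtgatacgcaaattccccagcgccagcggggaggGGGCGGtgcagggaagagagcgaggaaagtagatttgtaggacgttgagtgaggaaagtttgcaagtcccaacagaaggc
GGGCGG occurred in 3 of the 4 windows, all but that of Sparc, and in 35.7% of all 32851 promoter windows. CCAAT occurred in 2, those of Nid1 and Col4a5, and in 37.4% of all windows. No window held TATAAA (13.6% of all) or TGANTCA (7.81%). Among genes tested here with a window, GGGCGG was found for 74.5% of 94 called higher, 68.4% of 79 called lower and 72.3% of all 6848. A match describes the letters of the window and does not show that a factor binds there.

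Imprinted growth genes, which are expressed from 1 parental allele and several of which fall steeply after birth, were lower or not called. Of 14 tested among 26 listed, 3 were lower and none was higher, where 1.19% of all features were lower and 1.32% higher, and the median change was -0.27. None was called in the 8 libraries with 101 or more Y-linked counts. Plagl1, a zinc finger regulator of other imprinted genes, had 3.83, 4.66 and 9.49 CPM at 16 weeks against 9.33, 10.6 and 12.1 CPM at 6 weeks and changed by -0.97 ± 0.22, adjusted p = 0.0177, with the call lost in 1 of the 12 leave-one-out fits. At 16 weeks 5 libraries lay at or below 5.22 CPM, and replicate 5, at 9.49 CPM, overlapped the 6-week range. Grb10, an adaptor that restrains insulin and IGF signalling, had 148, 156 and 187 CPM at 16 weeks against 158, 216 and 228 CPM at 6 weeks and changed by -0.35 ± 0.09, adjusted p = 0.0373. Peg3, a zinc finger protein, changed by -0.53 ± 0.14, adjusted p = 0.0458. Grb10 and Peg3 lost their calls in 9 of the 12 and 10 of the 12 leave-one-out fits. Igf2, the fetal growth factor, had 19.1, 22.5 and 28.6 CPM at 16 weeks against 28.4, 31.2 and 53.6 CPM at 6 weeks and missed the threshold at -0.55 ± 0.16, adjusted p = 0.0627, whereas it passed in the GC-corrected fit (-0.61 ± 0.16, adjusted p = 0.0479). Snrpn changed by -0.29 ± 0.10, adjusted p = 0.133 and Cdkn1c, a cell cycle inhibitor, by 0.26 ± 0.15, adjusted p = 0.394. Of 46 cell cycle genes listed, 12 had enough counts to test and none was called, with a median change of 0.05. Dnmt3a, a DNA methyltransferase that sets new methylation marks, was among the leading decreases with 115, 125 and 128 CPM at 16 weeks against 153, 158 and 177 CPM at 6 weeks and a change of -0.40 ± 0.07, adjusted p = 0.00487. Tfrc, the transferrin receptor that brings iron into growing cells, had 8.92, 19.5 and 41.4 CPM at 16 weeks against 37.2, 65.8 and 107 CPM at 6 weeks, with overlap. It changed by -1.68 ± 0.37, adjusted p = 0.047 and was the 1 gene called lower among 26 tested on the list of IGF signalling and growth, and it lost its call in 9 of the 12 leave-one-out fits.

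Nuclear genes of the respiratory chain were mostly without a call, and the called ones were lower. Of 77 tested among 88, 5 were lower and none higher, with a median of -0.04, where 1.19% of all features were lower and 1.32% higher. Uqcrb, a small subunit of complex III, had 0.425, 1.25 and 10.7 CPM at 16 weeks against 14.2, 16.0 and 20.1 CPM at 6 weeks. Only 446 exonic bases belong to Uqcrb alone, and the 6 libraries of an age held 1 to 26 counts at 16 weeks and 33 to 54 at 6 weeks. Replicate 5 at 16 weeks held 26 of the 43 Uqcrb counts of its age, and the change was -2.40 ± 0.46, adjusted p = 0.0171. It was -3.44 without that library, and ran from -3.44 to -2.18 over the 12 leave-one-out fits. Its neighbours in complex III were far more abundant per kilobase, Uqcrh at 246 CPM per kb at 16 weeks and 314 at 6 weeks and Cyc1 at 904 CPM per kb at 16 weeks and 1004 at 6 weeks, and Uqcrb at 2.80 CPM per kb at 16 weeks and 35.8 at 6 weeks. Uqcrh changed by -0.35 ± 0.08, adjusted p = 0.0244, and Cyc1, cytochrome c1, by -0.15 ± 0.06, adjusted p = 0.214. Atp5j, coupling factor 6 of the ATP synthase, had 196, 202 and 269 CPM at 16 weeks against 251, 293 and 342 CPM at 6 weeks and changed by -0.46 ± 0.09, adjusted p = 0.00556, with the call kept in all 12 leave-one-out fits. Cox7a2 and Cox6b1, subunits of cytochrome c oxidase, changed by -0.30 ± 0.07, adjusted p = 0.0177 and -0.42 ± 0.11, adjusted p = 0.0495, and Cox6b1 has 14.9% of its exonic bases to itself. Uqcrh, Cox7a2 and Cox6b1 lost their calls in 4 of the 12, 1 of the 12 and 9 of the 12 leave-one-out fits. Cox6a2, the muscle form of another oxidase subunit, had a change of 0.24 ± 0.07, adjusted p = 0.051 in the other direction and was not called. None of 7 mitochondrially encoded genes tested was called. Their median change was -0.52, and mt-Co1 spread from 1204 to 11059.8 CPM at 16 weeks and 5751 to 10038 CPM at 6 weeks, with replicates 1, 4 and 6 at 16 weeks at or below 1993 CPM.

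In metabolism, Idh2, the mitochondrial isocitrate dehydrogenase that makes NADPH, was the 1 called gene of 28 in the citric acid cycle and pyruvate entry list. Idh2 had 2719, 2986 and 3100.4 CPM at 16 weeks against 2056, 2355 and 2423 CPM at 6 weeks, without overlap, and rose by 0.38 ± 0.06, adjusted p = 0.00183. Lonp2, a protease of peroxisomes, is on no list and was among the leading increases. Lonp2 had 84.4, 96.0 and 102 CPM at 16 weeks against 62.7, 66.8 and 72.9 CPM at 6 weeks and changed by 0.48 ± 0.08, adjusted p = 0.00315. Slc27a1, a fatty acid transporter, was the 1 called gene of 40 tested for fatty acid uptake and oxidation (0.33 ± 0.08, adjusted p = 0.0373), and it lost the call in 8 of the 12 leave-one-out fits and in the GC-corrected fit (0.22 ± 0.08, adjusted p = 0.178). None of 26 glycolysis and glucose uptake genes was called. Of 31 antioxidant and mitochondrial redox genes tested, 2 were higher and none lower, with a median of 0.10, where 1.32% of all features were higher. They were Gpx3, a secreted glutathione peroxidase (0.32 ± 0.08, adjusted p = 0.0241), and Gstm1, a glutathione transferase (0.32 ± 0.08, adjusted p = 0.0395). Gpx3 lost its call in 3 of the 12 leave-one-out fits, and Gstm1 in 8 of the 12 and in the GC-corrected fit (0.27 ± 0.08, adjusted p = 0.058).

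Of 26 autophagy and mitophagy genes tested among 29 listed, 3 were higher and 1 lower, where 1.32% of all features were higher and 1.19% lower, and the median change was 0.05. Gabarapl1, an ATG8-family protein of the autophagosome membrane, had 128, 149 and 173 CPM at 16 weeks against 93.0, 100.02 and 120.1 CPM at 6 weeks. All 6 libraries at 16 weeks exceeded all 6 at 6 weeks, and the change was 0.56 ± 0.09, adjusted p = 0.00177. Sqstm1, the cargo receptor p62, had 317, 361 and 422 CPM at 16 weeks against 218, 259.8 and 332 CPM at 6 weeks and changed by 0.44 ± 0.09, adjusted p = 0.0129. Ctsd, the lysosomal protease cathepsin D, had 1637, 1814 and 1884 CPM at 16 weeks against 1343, 1491 and 1547 CPM at 6 weeks and changed by 0.28 ± 0.06, adjusted p = 0.0144. Gaa, the lysosomal glycogen-degrading enzyme whose loss causes Pompe disease, is on no list and had 485, 556 and 633 CPM at 16 weeks against 374, 393 and 454 CPM at 6 weeks, with a change of 0.48 ± 0.08, adjusted p = 0.00183. Gabarapl1, Sqstm1, Ctsd and Gaa were called in all 12 leave-one-out fits and in the GC-corrected fit. Fundc2, an outer mitochondrial membrane protein, was the member called lower, with 7.64, 11.6 and 17.3 CPM at 16 weeks against 17.9, 21.9 and 25.3 CPM at 6 weeks and a change of -0.86 ± 0.17, adjusted p = 0.00868. Pink1, the kinase that marks damaged mitochondria and the most abundant member without a call, changed by 0.14 ± 0.08, adjusted p = 0.389. Sham-operated hearts aged 12 weeks had 134 to 167 CPM of Gabarapl1, beside 135 to 189.8 at 16 weeks and 97.8 to 127 at 6 weeks.

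**Figure D3:**
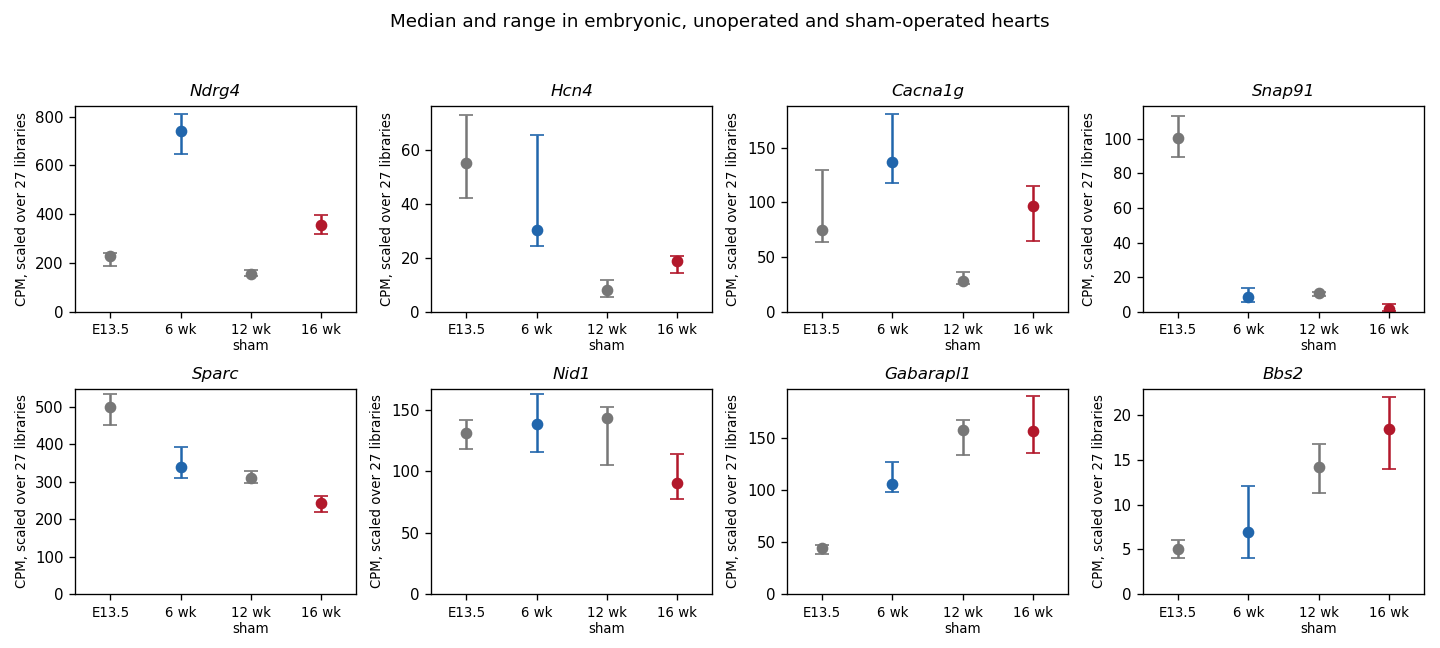
Median (points) and range (bars) of 8 genes in 7 embryonic hearts, 6 hearts at 6 weeks, 4 sham-operated hearts aged 12 weeks and 6 hearts at 16 weeks, in CPM scaled over all 27 libraries. Ndrg4, Hcn4 and Cacna1g in sham-operated hearts lie below both unoperated ages, while Gabarapl1 and Bbs2 in sham-operated hearts lie above the 6-week median. Embryonic and sham-operated libraries were sequenced more deeply than the unoperated ones.

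The other leading increases came from genes of varied roles, which were not chosen as a group. Of 29 heat shock and endoplasmic reticulum chaperones tested, 1 was higher and 1 lower, with a median of -0.11. Over all features, 1.32% were higher and 1.19% lower. None of 39 cytosolic ribosomal protein genes was called. Cited2, a coactivator of the CBP and p300 acetyltransferases that heart development needs, had 60.8, 66.7 and 83.5 CPM at 16 weeks against 29.1, 40.5 and 49.6 CPM at 6 weeks. Its change was 0.77 ± 0.12, adjusted p = 0.00177. Eif1, which scans for the start codon, had 136, 158 and 164 CPM at 16 weeks against 92.6, 102 and 129 CPM at 6 weeks and changed by 0.54 ± 0.09, adjusted p = 0.00183. Ppp1r15a, the stress-induced subunit that dephosphorylates the initiation factor eIF2, had 35.3, 40.4 and 48.8 CPM at 16 weeks against 23.1, 26.1 and 30.5 CPM at 6 weeks and changed by 0.65 ± 0.11, adjusted p = 0.00459. Clu, the secreted chaperone clusterin, had 1095, 1121 and 1250.2 CPM at 16 weeks against 463, 738 and 834 CPM at 6 weeks and changed by 0.73 ± 0.11, adjusted p = 0.00183, and the lowest library at 16 weeks exceeded the highest at 6 weeks. Mvp, the major vault protein, changed by 0.59 ± 0.11, adjusted p = 0.00556, and Pbxip1, a protein that binds PBX transcription factors, by 0.41 ± 0.08, adjusted p = 0.00556. D17H6S56E-3 and D10Jhu81e were also among the 15, at 0.74 ± 0.11 and 0.41 ± 0.07. Bbs2 had the largest change of the 15. It encodes a subunit of the BBSome, which carries membrane proteins to cilia, and had 13.2, 17.0 and 21.3 CPM at 16 weeks against 3.87, 6.74 and 11.5 CPM at 6 weeks, a change of 1.20 ± 0.20, adjusted p = 0.00292. None of the 6 other BBSome and ciliary chaperonin genes tested was called. Among 29 cardiac transcription factors tested, Hand2 (96.8 to 117 CPM at 16 weeks and 65.1 to 94.0 CPM at 6 weeks; 0.43 ± 0.09, adjusted p = 0.0162) and Prox1 (130.0 to 163 CPM at 16 weeks and 98.2 to 141 CPM at 6 weeks; 0.34 ± 0.09, adjusted p = 0.047) were higher and none was lower. The shares over all features were 1.32% higher and 1.19% lower. Hand2 and Prox1 lost their calls in 1 of the 12 and 7 of the 12 leave-one-out fits. No immediate early gene was called among 16 tested, although 14 had a positive change and the median was 0.45. Of these, Dusp1 had 80.4, 99.1 and 329 CPM at 16 weeks against 67.9, 103 and 121 CPM at 6 weeks, with replicate 6 at 16 weeks far above the rest, and changed by 0.46 ± 0.37, adjusted p = 0.586. Jun changed by 0.42 ± 0.18, adjusted p = 0.257 and Jund by 0.48 ± 0.17, adjusted p = 0.156. None of 22 circadian clock genes tested was called, with a median of 0.03.

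Contractile and calcium-handling genes were mostly without a call. Of 54 sarcomere and Z disc genes tested, 4 were higher and 2 lower, with a median of 0.07, where 1.32% of all features were higher and 1.19% lower. Myom2, the M-band protein of fast and mature fibres, had 3834, 4098 and 4372 CPM at 16 weeks against 2597, 3264 and 3758 CPM at 6 weeks, without overlap, and changed by 0.35 ± 0.07, adjusted p = 0.0121. The small heat shock proteins Hspb7 and Hspb1 and the intermediate filament gene Des changed by 0.55 ± 0.13, adjusted p = 0.0443, 0.43 ± 0.10, adjusted p = 0.0244 and 0.25 ± 0.07, adjusted p = 0.0495, and none of these 3 was called in the GC-corrected fit. They lost their calls in 10 of the 12, 3 of the 12 and 10 of the 12 leave-one-out fits. Fhl2, a LIM-domain protein of the sarcomere, had 1611, 1817 and 1904 CPM at 16 weeks against 1941, 2236 and 2724 CPM at 6 weeks and changed by -0.34 ± 0.07, adjusted p = 0.0167. Nebl, the Z disc protein nebulette, changed by -0.46 ± 0.11, adjusted p = 0.031 and lost its call in 7 of the 12 leave-one-out fits. Tnnt2, cardiac troponin T, changed by 0.23 ± 0.05, adjusted p = 0.0244 and lost the call in 5 of the 12 leave-one-out fits and in the GC-corrected fit (0.17 ± 0.05, adjusted p = 0.0708). Trdn, which anchors the calcium release channel to calsequestrin, was the 1 called of 29 calcium-handling genes tested. Trdn had 48.0, 63.7 and 110.0 CPM at 16 weeks against 123, 134 and 145 CPM at 6 weeks. The ages did not overlap, and the 16-week libraries with the most Trdn, replicates 2 and 5, were the 2 of their age whose counts leaned to genes of low GC share. The change was -0.88 ± 0.20, adjusted p = 0.0458. The call was lost in 10 of the 12 leave-one-out fits, but it was kept in the GC-corrected fit, where the change was -0.75 ± 0.11, adjusted p = 0.00153. Srl, sarcalumenin, a calcium-binding protein of the sarcoplasmic reticulum that is on no list, had 1328, 1403 and 1478 CPM at 16 weeks against 1560.0, 1750.0 and 2217 CPM at 6 weeks and changed by -0.36 ± 0.07, adjusted p = 0.00864, with the call kept in every leave-one-out fit. Casq2, cardiac calsequestrin, changed by -0.37 ± 0.15, adjusted p = 0.243. The natriuretic peptide genes Nppa and Nppb, the skeletal actin gene Acta1 and Postn, periostin, all markers of cardiac stress or remodelling, were not called, and their ages overlapped, at 578 to 1343 CPM at 16 weeks and 74.1 to 992 CPM at 6 weeks for Nppa and 19.1 to 25.5 CPM at 16 weeks and 18.1 to 75.7 CPM at 6 weeks for Postn.

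Tpm3 encodes a slow-type tropomyosin and had 27.3, 29.3 and 34.0 CPM at 16 weeks against 12.8, 15.1 and 24.6 CPM at 6 weeks, a change of 0.80 ± 0.15, adjusted p = 0.00556. Tpm3-rs7, named after its values were seen because its sequence is related to Tpm3, went the other way, with 4.67, 7.65 and 9.67 CPM at 16 weeks against 7.07, 16.0 and 22.1 CPM at 6 weeks and a change of -1.05 ± 0.27, adjusted p = 0.0458, with the call lost in 10 of the 12 leave-one-out fits. How the counting divided reads between the 2 is not given in the sources used here, so the change of either is uncertain. The alpha globin genes Hba-a1 and Hba-a2 are near-identical copies with the same limit. Hba-a2, whose call was lost in 9 of the 12 leave-one-out fits and in the GC-corrected fit (0.76 ± 0.18, adjusted p = 0.0513), changed by 0.84 ± 0.19, adjusted p = 0.047 and Hba-a1 by 0.88 ± 0.21, adjusted p = 0.0507. All 6 erythroid markers tested had a positive change, and their summed level was 773 to 1398 CPM at 16 weeks and 387 to 861 CPM at 6 weeks.

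The other leading decreases came from several families. Ptprf, a receptor tyrosine phosphatase, had 31.4, 36.2 and 40.4 CPM at 16 weeks against 44.8, 55.3 and 71.0 CPM at 6 weeks and changed by -0.63 ± 0.11, adjusted p = 0.00471. Trim7, a ubiquitin ligase that binds glycogenin, changed by -0.55 ± 0.10, adjusted p = 0.00517. Slc39a1, a zinc importer, changed by -0.48 ± 0.09, adjusted p = 0.00779, and Wfdc1, a secreted protein with a protease inhibitor fold, by -0.88 ± 0.17, adjusted p = 0.00831. The transcription factor gene Elk1, the elongation factor gene Iws1 and Csl changed by -0.78 ± 0.16, -0.61 ± 0.12 and -0.34 ± 0.07. That the libraries of the 2 ages did not overlap was a condition for naming these 7.

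Among NONCODE features, the noncoding transcripts that the authors' annotation adds to the coding genes, 811 were tested, of which 5 (0.617%) were higher and 21 (2.59%) lower at 16 weeks. No exon of a coding gene overlaps 17 of these 26. The lower features included all 5 tested within 10000 bases of Myh6 or Myh7, the fast and slow cardiac myosin heavy chain genes, which lie side by side on the minus strand of chromosome 14. This locus was singled out after its values were seen. Neither myosin gene was called: Myh6 had 41917, 50077 and 59636 CPM at 16 weeks against 40336, 48886 and 52980.1 CPM at 6 weeks, a change of 0.05 ± 0.08, adjusted p = 0.834, and Myh7 had 2418, 2799 and 3185 CPM at 16 weeks against 2193, 2482 and 2706 CPM at 6 weeks, a change of 0.19 ± 0.07, adjusted p = 0.145.

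The first of the 5, n279092 (mm9 chr14:55572562-55573802, plus strand), lies inside Myh6 and shares 229 bases with its exons. It had 134, 166 and 229 CPM at 16 weeks against 232, 270.0 and 327 CPM at 6 weeks and changed by -0.66 ± 0.11, adjusted p = 0.00517. In the region between the genes and the 3' part of Myh7 lies n415312 (mm9 chr14:55587623-55593186, plus strand), which had 53.4, 57.5 and 83.7 CPM at 16 weeks against 86.8, 104 and 129.9 CPM at 6 weeks and changed by -0.68 ± 0.12, adjusted p = 0.00556. Further into Myh7 lies n293052 (mm9 chr14:55598147-55610438, plus strand), with 41.7, 44.5 and 47.3 CPM at 16 weeks against 65.5, 72.5 and 96.0 CPM at 6 weeks and a change of -0.76 ± 0.10, adjusted p = 0.000378, the smallest p of all NONCODE features. None of these 3 overlapped between ages, and all kept their calls in every leave-one-out fit. Of their exonic bases, 1012, 366 and 724 are shared with no other feature. How reads on shared bases were counted is not given in the sources used here. The libraries do not keep the strand, so RNA of the opposite strand, including unspliced Myh6 or Myh7 RNA, cannot be told apart from theirs. The other 2 share no exonic base with a myosin gene. An interval inside Myh7, n270897 (mm9 chr14:55590745-55591524, minus strand), had 10.6, 15.6 and 19.98 CPM at 16 weeks against 20.3, 25.5 and 29.7 CPM at 6 weeks and changed by -0.67 ± 0.15, adjusted p = 0.0171. This interval lies on the same strand as Myh7, so unspliced Myh7 RNA cannot be told apart from it either. A feature 6959 bases beyond the 5' end of Myh7, n265935 (mm9 chr14:55620430-55621814, minus strand), had 56.8, 76.9 and 91.4 CPM at 16 weeks against 87.8, 106 and 147 CPM at 6 weeks and changed by -0.56 ± 0.13, adjusted p = 0.0321, with the call lost in 3 of the 12 leave-one-out fits. In sham-operated hearts aged 12 weeks, n415312 and n293052 stood at 239 to 309 and 122 to 181 CPM, above both unoperated ages, whereas n279092, at 165 to 199.9 CPM, lay within the 16-week range of 147 to 248 CPM. On the same scaling over all 27 libraries, Myh7 stood at 457 to 462 CPM in sham-operated hearts, far below both unoperated ages. It had 2320 to 2841 CPM at 6 weeks and 2536 to 3450 CPM at 16 weeks.

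**Figure D4:**
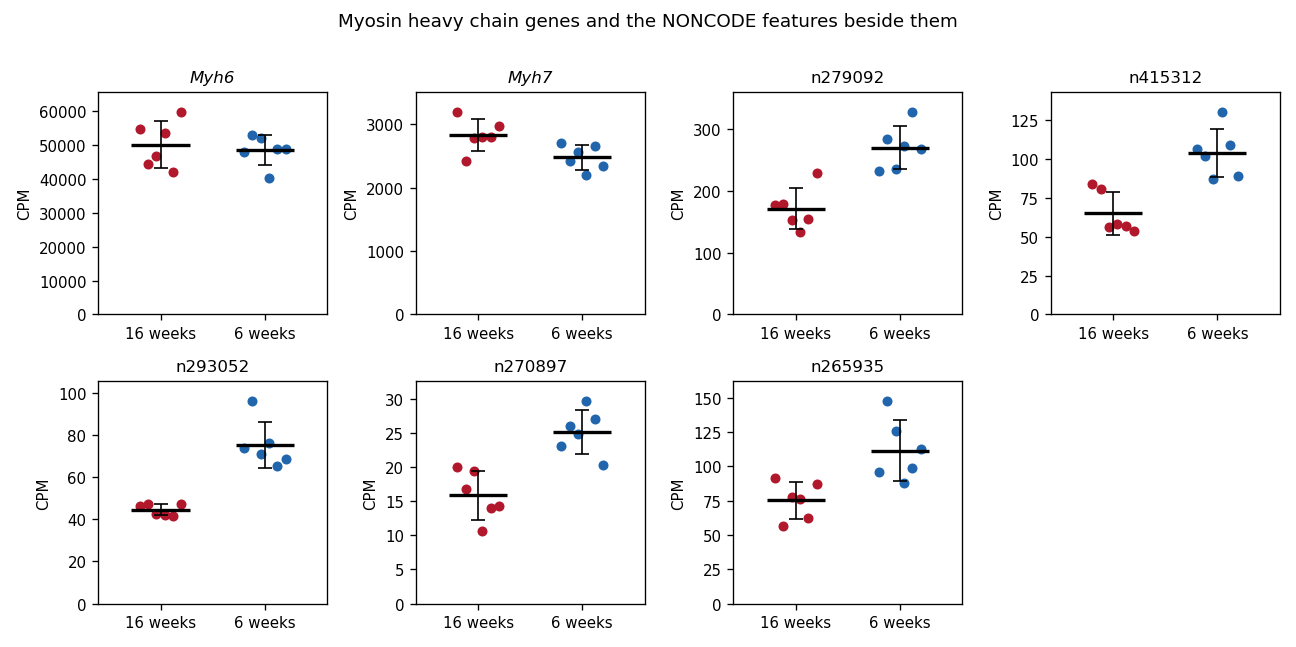
CPM of Myh6, Myh7 and the 5 NONCODE features tested beside them in each library (points; 6 per age), with the mean (line) and SD (bars), 16 weeks on the left and 6 weeks on the right. The 2 myosin genes overlap between the ages, while n279092, n415312, n293052 and n270897 do not.

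Away from this locus, the lowest p among higher NONCODE features was that of n265835 (mm9 chr3:5860338-5860826, plus strand), 284099 bases from the nearest coding gene, Pxmp3. It was abundant, with 1928, 2225 and 2567 CPM at 16 weeks against 1006, 1293 and 1767 CPM at 6 weeks, and changed by 0.75 ± 0.11, adjusted p = 0.00467. The next, n291524 (mm9 chr13:51295452-51298306), had 5.36, 5.85 and 8.07 CPM at 16 weeks against 1.29, 1.59 and 3.86 CPM at 6 weeks and changed by 1.55 ± 0.29, adjusted p = 0.00556. Of the other 2 named, n293692 and n279349 overlap exons of Papola and 5730437N04Rik and changed by 0.96 ± 0.23 and 0.47 ± 0.12, losing their calls in 5 of the 12 and 7 of the 12 fits. Outside the myosin locus the lower feature with the smallest p was n282476 (mm9 chr17:12970229-12971495), 7699 bases from Igf2r. It had 1.93, 3.36 and 6.60 CPM at 16 weeks against 7.75, 9.31 and 16.8 CPM at 6 weeks and changed by -1.52 ± 0.28, adjusted p = 0.00517, while Igf2r itself changed by 0.06 and was not called.

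The direction of the calls went with the GC share of the transcripts. Over 9494 coding genes with a GC share, Spearman's correlation of the log2 fold change with GC was 0.28 (across genes, which are not replicates). In the 10% of genes with the lowest GC share, none was higher and 19 were lower, and in the 10% with the highest, 35 were higher and none lower. The median GC share was 55.5% for genes called higher, 48.6% for genes called lower and 51.4% for all. Libraries differed in this lean, measured as the median deviation of the 20% of genes richest in GC minus that of the poorest 20%. It averaged 0.07 ± 0.19 (SD, n = 6) at 16 weeks and -0.09 ± 0.15 (SD, n = 6) at 6 weeks on the log2 scale, and the ages overlapped (exact permutation test over 924 regroupings, two-sided, p = 0.119). It was highest in replicates 1, 4 and 6 at 16 weeks (0.181, 0.265 and 0.236), the libraries with the lowest mitochondrial shares. Next came replicate 6 at 6 weeks (0.166), with a share of 1.33%. The part of RNA quality or handling in this lean was not tested. With each library's trend removed, 110 of the 9494 genes were higher (1.16%) and 142 lower (1.50%), and the correlation was -0.01. Of the 131 coding genes called higher (1.37% of those tested) and 103 called lower (1.08%) without this step, 88 and 92 were called with it. In that fit 11 matrix genes were lower and none higher, 9 nuclear respiratory chain genes were lower and none higher, and 1 sarcomere gene was higher and 2 were lower.

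**Figure D5:**
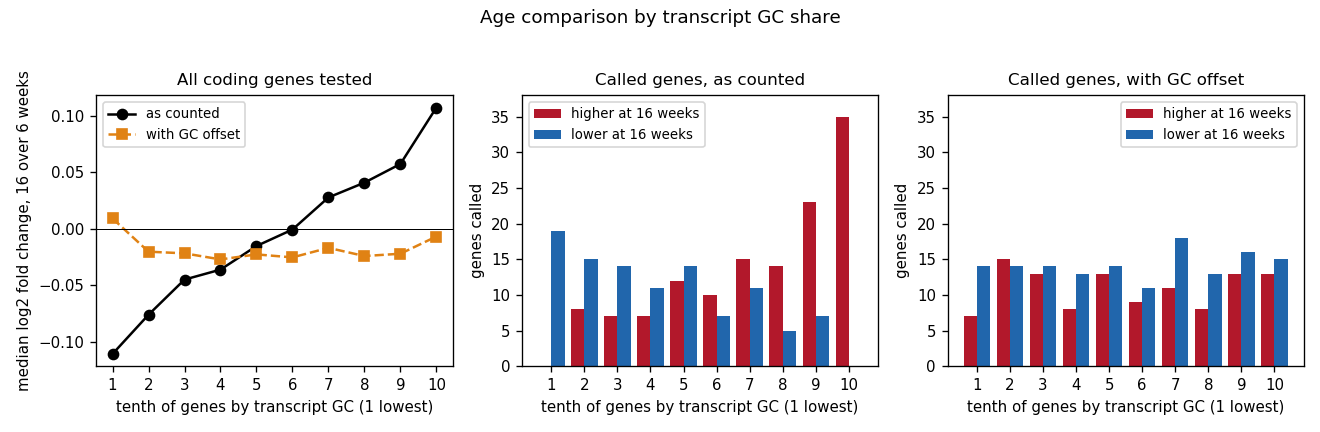
Coding genes in 10 equal bins by transcript GC share, from lowest to highest: the median log2 fold change of 16 weeks over 6 weeks (left), the genes called as counted (middle) and the genes called with each library's GC trend removed (right). As counted, the lowest bin has 19 genes lower and none higher, and the highest has 35 higher and none lower.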

How the data were processed

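The files hold raw counts per feature of polyadenylated RNA, which the authors made from mouse mm9 (NCBIM37) alignments. The submitters' processing notes name Bowtie, TopHat 1.3.0, HTSeq, DESeq and edgeR without their roles. How reads with several matches, or on bases that features share, were counted is not given in the sources used here. Values per kilobase divide by the exonic bases that no other feature shares, whichever reads were counted. Each library's deposited counts equalled those of the series table. The line of totals entered neither library sizes nor tests.

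The 12 libraries were fitted alone in R 4.3.3 with edgeR 4.0.16: features kept by the expression filter (minimum count 10, minimum total 15), TMM scaling, robust quasi-likelihood test, Benjamini-Hochberg adjusted p under 0.05. The fit and the GC step were tested on simulated data. Each standard error is the size of the fitted log2 change divided by the root of its F statistic. CPM are TMM-scaled, and stage values use factors over all 27 libraries. Counting error adds to the spread of low features.

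Replicate numbers recur in both ages, and the samples were not treated as paired. Correlations of same-numbered deviations ran from -0.064 to 0.152. For replicates 1, 5 and 6 the best match at the other age was the library of the same number. Replicates 1 and 6 of both ages were also those with at most 1 Y-linked count. The smallest chi-square per degree of freedom between libraries of an age was 2.41, so none was a duplicate.

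Named genes were the 15 called coding genes per direction with the smallest p, a mean of at least 5 CPM and ages that did not overlap, 4 NONCODE features per direction with at least 1 CPM, every called member and up to 3 abundant others of each list, and 20 genes chosen by name. Hcn2, Cacna1h, the Ndrg family, Tpm3-rs7, n270897 and n265935 were added after their values were seen. A few named genes are not reported here. The comparison, members and lists were chosen with earlier results of these data known.

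Alternatives were RLE and upper-quartile scaling, no mitochondrially encoded features, DESeq2 1.42.0, limma-voom (limma 3.58.1), no filter, at least 1 CPM in every library of an age, all 27 libraries in 1 fit, a replicate block, a Y-linked covariate, no libraries with 3 or fewer Y-linked counts and each library left out. Added after seeing the data was an offset for transcript GC share, a loess curve (span 0.5) per library over coding genes whose GENCODE M21 transcripts gave a GC share (99.4%). Promoter windows were matched by symbol to RefSeq, GRCm38.p6, and figures used Python 3.11.15 with matplotlib 3.10.9.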

Additional observations from a re-analysis of the deposited data

Results flagged for a closer look

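Each of the following values stood apart from the other 5 libraries of its age, by a gap to the nearest of them that exceeded Dixon's 95% critical value for 6 samples. Chance alone flags about 1 in 20 groups, and 2 ages of 120 named genes and features were looked at.

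Replicate 2 at 6 weeks, the library with atrial light chain counts, stood apart for 5 of them. It was highest for Igf2 (53.6 CPM), the noncoding feature n293052 (96.0 CPM) and the laminin gene Lamc1 (819 CPM), and lowest for Hspb7 (2584 CPM) and the globin gene Hba-a2 (39.4 CPM). Among other 6-week libraries, replicate 3 was lowest for Col3a1 (231 CPM, the next at 489), replicate 1 for Gstm1 (134 CPM) and replicate 6 for Csl (176 CPM), and replicate 4 was highest for n282476 (16.8 CPM).

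At 16 weeks, replicate 5 was highest for Plagl1 (9.49 CPM), Grb10 (187 CPM) and Uqcrb (10.7 CPM), each toward the 6-week level. Replicate 6 was highest for the immediate early genes Dusp1 (329 CPM) and Jun (179 CPM) and lowest for Cacna1h (3.10 CPM). Replicate 3 was highest for Cited2 (83.5 CPM) and Pbxip1 (186 CPM). Replicate 4 was highest for Sncg (27.6 CPM) and Acta1 (551 CPM) and lowest for Dpt (61.1 CPM), and replicate 2 was lowest for Pink1 (1020 CPM). The part of tissue sampling, handling or RNA quality in these values was not tested.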

How the results depend on the processing

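No setting turned the call of any called gene or feature into a call in the other direction. The called genes of the matrix lists were all lower under each setting run. The counts of features called higher and lower were 137 and 124 as reported, 219 and 289 with no filter, 221 higher with all 27 libraries in 1 fit, and 74 and 64 without the 4 libraries with 3 or fewer Y-linked counts. Matrix genes called lower numbered 8, against 19 with no filter, 13 with the Y-linked covariate and 5 without those 4 libraries. Leaving out 1 library at a time gave 51 to 207 higher, 56 to 165 lower and 5 to 20 matrix genes lower. Calls in the higher direction made up 52.5% of all calls, 44.9% with upper-quartile scaling, 43.1% with no filter and 43.7% with the GC offset. With the replicate number as a block, 151 features were higher and 137 lower, of which 113 and 97 were shared with those reported, and 11 matrix genes were lower. The causes were not tested.

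Of 120 named genes and features, 85 were called, 49 of them in all 12 leave-one-out fits. Changes of sign were seen only for genes without a call. They were Acta1 (0.042 with limma-voom and 0.39 without the 4 libraries), Myh6 (-0.054 without the 4 libraries and -0.026 with the GC offset), Dusp1 (-0.10 without the 4 libraries), Ddx3y (0.061 with the Y-linked covariate) and Kdm5d (-0.30 with limma-voom). Over the leave-one-out fits the changes that turned sign ran from -0.92 to 0.022 for Acta1, -0.015 to 0.086 for Myh6, -0.037 to 0.58 for Dusp1, -0.099 to 0.022 for Ndrg1 and -0.20 to 0.35 for Kdm5d. At totals of 2092270 to 2682955 counts a library, 21937 features that had a count were too low to test.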
